A study of Homo sapiens with 21 samples.

Results

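Transcripts of 10 chemokines (CXCL1, CXCL2, CXCL3, CXCL5, CXCL6, CXCL8, CXCL12, CCL2, CCL7 and CX3CL1) were followed in BJ cells, a human skin fibroblast line with a limited replicative lifespan. They were taken by gene name, and all 10 had a row among the 61544 genes of the count table. The table covers 21 poly(A)-selected libraries in 7 groups of 3. 5 groups are untreated cells of increasing passage (P3, P11, P24, P30, P33). The other groups are cells at P11 that received DOX, at 50 ng/ml, or DMSO, the solvent. The series title names doxorubicin, a topoisomerase poison that breaks DNA. All groups are the one BJ line. The labels give no duration of treatment and do not say whether replicates were separate cultures, so p-values measure the spread between these libraries, which may be technical.

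Chemokines are small secreted proteins that steer migrating cells through G protein-coupled receptors. CXCL1, CXCL2, CXCL3, CXCL5, CXCL6 and CXCL8 attract neutrophils through CXCR2, and CXCL6 and CXCL8 also through CXCR1. CCL2 and CCL7 attract monocytes through CCR2, CXCL12 holds CXCR4-bearing cells in stromal niches, and CX3CL1 is a membrane-tethered ligand of CX3CR1. Fibroblasts make CXCL12 at rest and the neutrophil and monocyte attractants when inflammatory signals such as IL-1 and TNF activate the transcription factor NF-kappaB. Several of them belong to the secretory programme described for senescent fibroblasts.

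At P33 against P3, the neutrophil attractants CXCL8, CXCL1, CXCL2 and CXCL3 and the monocyte attractants CCL2 and CCL7 were higher, while CXCL12 was lower. CXCL5 and CXCL6 did not pass the test. DOX did not give this pattern. Against DMSO it lowered CXCL8, CXCL1, CXCL6 and CXCL12 and raised CCL2 alone of the 9 with enough reads to test. CXCL2 was also called lower, a call that most alternatives lost.

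Levels are given as CPM, read counts scaled to a common library size by TMM, and a member was called when the adjusted p of edgeR's quasi-likelihood test was under 0.05. Library totals ran from 12946375 to 27194352 counts, so 1 read was worth 0.0385 to 0.0775 CPM. Counting error is therefore large for the members with few reads. The untreated passages and the DOX and DMSO libraries were not counted alike. Of 9425 genes inside another gene on the same strand, 3949 had reads in DOX or DMSO libraries and 0 in passage libraries. No level was therefore tested across the parts; the effect of DOX over DMSO and that of P33 over P3, each taken within its part, were compared. Of the members, CXCL6 alone holds another gene on its strand, the pseudogene PPBPP1, which had 0 reads in all libraries. All 14 fibroblast markers checked had reads in every group. Markers of other cell types are given with the other gene lists. In such bulk samples, fewer cells of a kind and less RNA per cell cannot be told apart.

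Of the 10 members 9 passed the count filter, which asked for about 0.526 CPM in 3 libraries. CX3CL1 did not pass. It had 1, 1 and 2 reads in the P33 libraries and 0 in the other 18 libraries, where a count of 0 allowed up to 0.0417 CPM over the group at P3, 0.0466 with DOX and 0.0538 with DMSO. Some members passed through few libraries. CXCL6 reached the filter level in 0 passage libraries and in 5 of the DOX and DMSO libraries. CXCL3 reached it in the 3 P33 libraries and in 1 treated library, and CCL7 in 3 libraries in all. These members had to be high somewhere to be tested. In a fit of the passage libraries alone 7 members were tested, and in a fit of the DOX and DMSO libraries alone also 7.

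**Figure D1:**
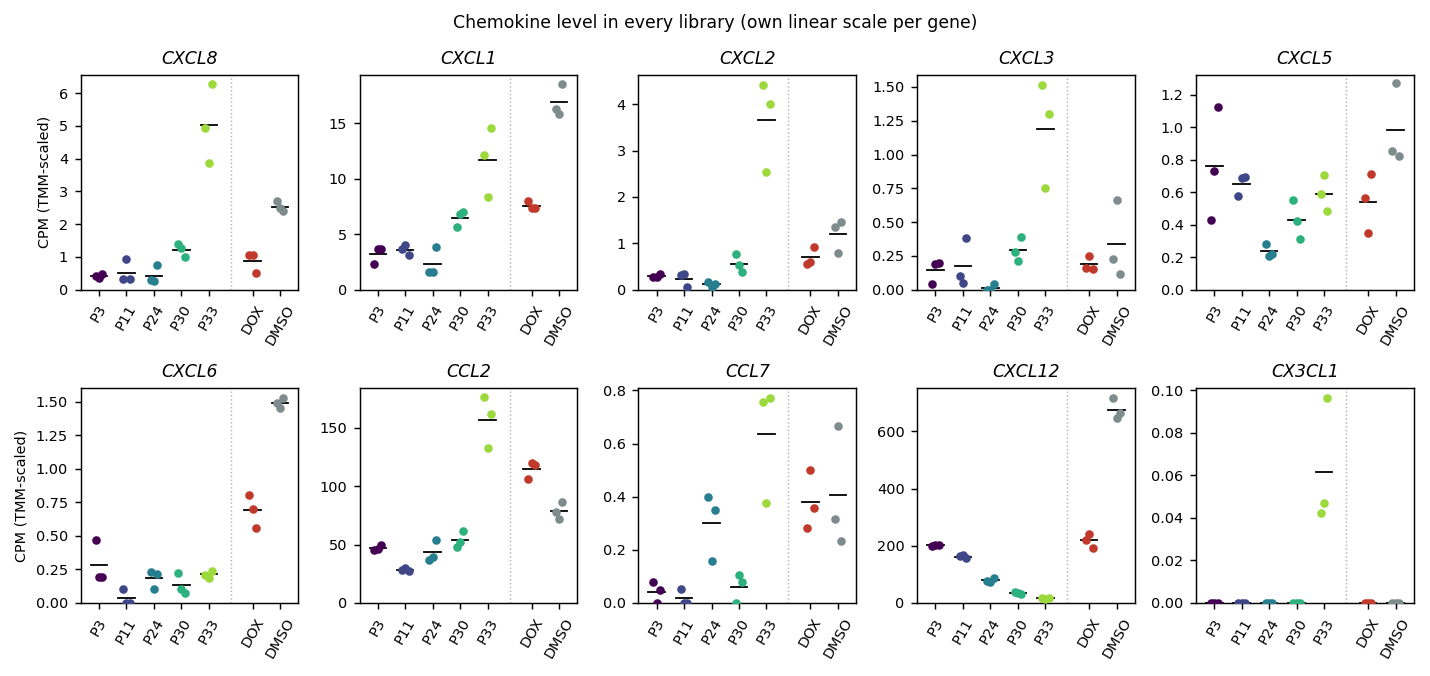
CPM of each of the 10 chemokines (vertical axis, from 0, own scale per gene) in every library, in passage order and then DOX and DMSO. Points are libraries and black lines group means. CXCL12 lies lower at each later passage, whereas CXCL8, CXCL2 and CXCL3 stand highest at P33.

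The 6 neutrophil attractants lie together on chromosome 4, in the order CXCL8, CXCL6, CXCL1, CXCL5, CXCL3 and CXCL2 (73740519 to 74099196, hg38). This stretch of 358678 bases holds 19 annotated genes, of which 10 are protein coding. The platelet chemokines PF4 and PPBP lie among the members and had 0 reads in all 21 libraries. Another, PF4V1, had 4 reads. Neighbours in this cluster were therefore not read alike: reads came almost wholly from the 6 members.

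The promoters of these 6 genes carry the same short sequence at nearly the same distance from the start. With DOX all 6 had negative fold changes, where the median over all genes tested was -0.01 (log2). Of these, CXCL3 and CXCL5 did not pass, and most alternatives lost the call of CXCL2. The sequences are shown because over the passages the genes that share the short sequence did not move together. Each runs 5′ to 3′ from base 110 to base 51 before the start given by RefSeq (GRCh38.p14). Capitals mark GGAATTTCC, a sequence that NF-kappaB is known to bind.
CXCL8: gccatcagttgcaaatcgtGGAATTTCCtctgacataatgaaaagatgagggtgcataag
CXCL1: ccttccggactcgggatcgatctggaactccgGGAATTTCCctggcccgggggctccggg
CXCL2: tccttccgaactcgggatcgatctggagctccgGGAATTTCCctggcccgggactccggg
CXCL3: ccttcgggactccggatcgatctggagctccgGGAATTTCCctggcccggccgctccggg
CXCL6: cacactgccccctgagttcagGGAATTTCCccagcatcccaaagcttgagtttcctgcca
CXCL5: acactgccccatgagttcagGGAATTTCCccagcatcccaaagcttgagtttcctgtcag
They lie at chr4:73740459-73740518 (plus strand) for CXCL8, chr4:73869283-73869342 (plus) for CXCL1, chr4:74099246-74099305 (minus) for CXCL2, chr4:74038740-74038799 (minus) for CXCL3, chr4:73836568-73836627 (plus) for CXCL6 and chr4:73998728-73998787 (minus) for CXCL5.

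GGAATTTCC was found on either strand within 250 bases before the start in 6 of the 8 members that the promoter table holds, and in 145 of all 35116 promoters there (0.413%). CCL2 and CX3CL1 are not among the 8, and these letters are not in the windows of CXCL12 and CCL7. The match begins 91 bases before the start in CXCL8, 78 in CXCL1 and CXCL3, 77 in CXCL2, 90 in CXCL5 and 89 in CXCL6. Over the 250 bases, the CXCL1 and CXCL3 promoters were 81.4% identical and those of CXCL6 and CXCL5 85.3%. CXCL8 was 44.7% to 47.6% identical to the others. The AP-1 motif TGANTCA (6.57% of promoters) was matched in CXCL8 and CCL7, and the C/EBP motif TTGCNNAA (9.05%) in CXCL2. A match describes letters in a window and not binding in these cells. GGAATTTCC was searched as fixed letters, whereas N in the other motifs stands for any base. Some of the member promoters are also much alike, so the shares with a match are no test of enrichment.

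CXCL8, the best-studied neutrophil attractant of the family, stayed low through mid lifespan and rose in the last passages. Its CPM were 0.429, 0.347 and 0.491 at P3, 0.313, 0.936 and 0.316 at P11, 0.284, 0.263 and 0.74 at P24, 1.38, 1.26 and 1.01 at P30, and 4.93, 3.86 and 6.27 at P33. The P30 libraries all lay above every earlier library, and the P33 libraries above those. At P33 it averaged 5.02 ± 1.2 CPM, against 0.422 ± 0.072 at P3 (SD, n = 3 each), a log2 fold change of 3.57 (SE 0.287, adjusted p = 1.14e-12). The steps P30 over P24 (1.44) and P33 over P30 (2.01) passed, and the earlier steps did not (adjusted p = 0.549 for P11 over P3 and 0.741 for P24 over P11). Rank among P3, P11 and P24 is not resolved, since their libraries overlap.

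CXCL1, a neutrophil attractant also called GRO-alpha, had the most reads of the 6 neighbours. Its CPM were 2.3, 3.66 and 3.63 at P3, 3.66, 3.99 and 3.1 at P11, 1.59, 1.58 and 3.83 at P24, 5.64, 6.84 and 6.97 at P30, and 12.1, 8.38 and 14.6 at P33. All P30 and P33 libraries exceeded all libraries of the earlier passages. CXCL1 was higher by 1.88 (log2, SE 0.192) at P33 than at P3, by 1.41 (SE 0.237) at P30 than at P24, and by 0.86 (SE 0.183) at P33 than at P30. In CXCL1, CXCL8 and CCL2 the third P24 library stood above the other two. Without it CXCL1 at P24 was called lower than at P3 (log2 fold change -1, adjusted p = 0.00251), as were CXCL3 (-4.54, 0.0458) and CCL2 (-0.318, 0.00914), so that 6 members passed at P24 against P3 in place of 3 (background 54.4% of genes tested).

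CXCL2 and CXCL3, close relatives of CXCL1, had few reads until P30. CXCL2 had 7, 7 and 7 reads at P3, 6, 7 and 1 at P11, 3, 1 and 3 at P24, 14, 10 and 5 at P30 and 105, 54 and 83 at P33. The P33 libraries lay far above all others. At P33 CXCL2 averaged 3.66 ± 0.99 CPM, against 0.295 ± 0.042 CPM at P3, which is 12.3-fold higher (log2 3.62, SE 0.307, adjusted p = 3.99e-12). CXCL3 had 1, 5 and 4 reads at P3, 2, 1 and 6 at P11, 0, 0 and 1 at P24, 5, 4 and 5 at P30 and 36, 16 and 27 at P33. CXCL3 was 8.29-fold higher at P33 than at P3 (log2 3.05, SE 0.485, adjusted p = 1.55e-06).

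Both had their lowest mean at P24, but neither differed there from P3 or P11 by the test (adjusted p = 0.0923 and 0.253 for CXCL2, 0.0588 and 0.0632 for CXCL3), so the rank of P3, P11 and P24 is not resolved. With 1 read of CXCL3 at P24 against 14 at P30, its P30 to P24 ratio was 16.7 with a 95% counting interval of 2.54 to 705. CXCL2 was higher by 2.24 (log2, SE 0.584) at P30 than at P24 and by 2.65 (SE 0.295) at P33 than at P30. At P30 against P3 neither passed (adjusted p = 0.0702 for CXCL2 and 0.233 for CXCL3), although the libraries of the groups did not overlap. Reads of these genes can be confused with each other. Of the 75-base stretches in CXCL2 transcripts 7.07% also occur in CXCL1 or CXCL3, of those in CXCL3 4.57% occur in CXCL2, and of those in CXCL1 0.245% occur in CXCL2. The sources used here do not say how reads matching several genes were handled.

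CXCL5 and CXCL6, which also attract neutrophils, did not pass at P33 against P3. CXCL5 had 0.429, 0.732 and 1.13 CPM at P3, 0.574, 0.69 and 0.695 at P11, 0.284, 0.21 and 0.218 at P24, 0.552, 0.421 and 0.31 at P30, and 0.59, 0.706 and 0.482 at P33. The P33 range lies inside that of P3, with a log2 fold change of -0.32 and a 95% interval of -1 to 0.36. All P24 libraries lay below all P3 and P11 libraries, and CXCL5 was called lower at P24 than at P3 (log2 -1.63, SE 0.415, adjusted p = 0.00122) and than at P11 (-1.45, SE 0.444, adjusted p = 0.0111). It overlaps a noncoding gene of the opposite strand that had 5 reads in all.

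CXCL6 had 12, 5 and 4 reads at P3, 2, 0 and 0 at P11, 4, 2 and 5 at P24, 4, 2 and 1 at P30 and 5, 4 and 5 at P33. It was called lower at P11 than at P3 (adjusted p = 0.00279), on 2 reads against 21, a ratio of 0.124 with a 95% counting interval of 0.0141 to 0.507. At P33 against P3 its log2 fold change was -0.44, with a 95% interval of -1.44 to 0.56. These intervals leave out rises of the size seen for CXCL8, CXCL2 and CXCL3.

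CCL2, the main monocyte attractant of fibroblasts, fell first and then rose. Its CPM were 45.7, 46.3 and 49.8 at P3, 27.9, 29.8 and 27.2 at P11, 36.6, 39.2 and 54 at P24, 48.2, 51.9 and 61.3 at P30, and 176, 133 and 161 at P33. All P11 libraries lay below all others, and all P33 libraries above them. CCL2 was lower at P11 than at P3 by 0.74 on the log2 scale (log2 fold change -0.74, SE 0.111, adjusted p = 1.94e-06). It was higher by 1.55 (SE 0.103) at P33 than at P30. Against P3 it was 3.32-fold higher at P33 (log2 1.73, SE 0.101, adjusted p = 4.57e-16). Neither P24 nor P30 differed from P3 by the test (adjusted p = 0.374 for P24 and 0.146 for P30). The step P30 over P24 was called (0.30, adjusted p = 0.0305), but with overlapping libraries. It was not called with library totals alone (0.239, adjusted p = 0.0878), with DESeq2, among genes of at least 10 CPM, or without any of 3 single libraries (P24 replicate 1 or 2, P30 replicate 3).

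CCL7, whose gene on chromosome 17 begins 13012 bases beyond the end of CCL2, is another ligand of CCR2. It had 2, 0 and 1 reads at P3, 1, 0 and 0 at P11, 7, 3 and 8 at P24, 0, 2 and 1 at P30 and 18, 8 and 16 at P33. P33 stood highest and P24 next, with P30 low between them. The ratio of P33 to P3 was 15.3, with a 95% counting interval of 4.9 to 77.3 (adjusted p = 5.78e-06). That of P24 to P3 was 7.25, with an interval of 2.12 to 38.4 (adjusted p = 0.0038), and that of P30 to P24 was 0.198 (0.0374 to 0.68, adjusted p = 0.03). The last was lost with DESeq2 (adjusted p = 0.0578) and without any of 4 single libraries.

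CXCL12, the stromal ligand of CXCR4, was lower at every later passage. Its CPM were 198, 204 and 204 at P3, 163, 167 and 156 at P11, 77.8, 72 and 86.1 at P24, 37.6, 34 and 31.5 at P30, and 19.1, 15.4 and 16.7 at P33. The libraries of no pair of passages overlapped. The log2 steps were -0.32 (SE 0.0704), -1.04 (SE 0.0733), -1.19 (SE 0.0805) and -1.01 (SE 0.0901), each with an adjusted p of at most 0.00034. Among the members it was the only one to change in the same called direction at all 4 steps. Over the whole range CXCL12 fell by 3.56 on the log2 scale (SE 0.084), that is 11.8-fold, to 17.1 ± 1.9 CPM at P33, against 202 ± 3.3 CPM at P3.

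**Figure D2:**
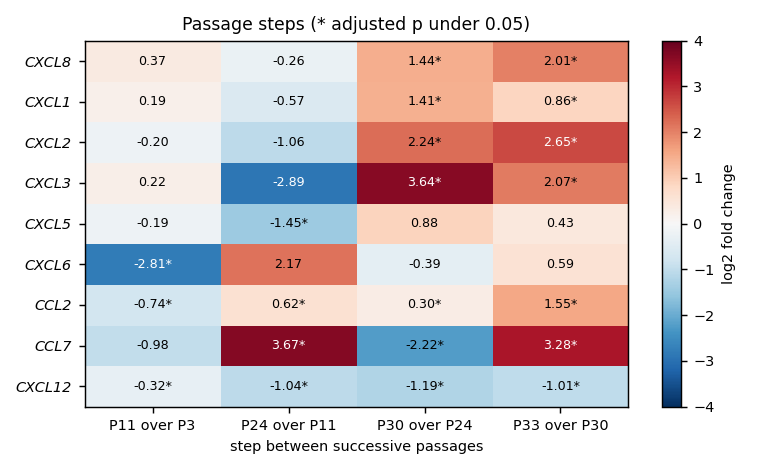
Log2 fold change of the 9 tested chemokines (rows) at each step between successive passages (columns, later over earlier), with * for adjusted p under 0.05. CXCL12 is negative throughout, from -0.32 to -1.19. CXCL8, CXCL1, CXCL2 and CXCL3 are positive in the last pair of steps. Large values of CXCL3, CXCL6 and CCL7 rest on groups with 1 to 3 reads.

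The calls among the 9 tested members were counted by comparison. At P11 against P3, 0 rose and 3 fell (CXCL6, CXCL12 and CCL2), where 46.5% of genes tested were called, 22.9% higher and 23.6% lower. At P24 against P3, 1 rose and 2 fell (background 54.4%, split into 26.6% and 27.8%), and at P30 against P3, 2 rose and 1 fell (58.6%, split into 29% and 29.6%). At P33 against P3, 6 rose and 1 fell (67.8%, split into 34.5% and 33.3%), with a median log2 fold change of 1.88 against 0 over all genes tested. With library totals alone the same counts held, while 65.6% of all calls were higher in place of 50.9%, with the median of all genes at 0.195. The share of members called in either direction there is near that of all genes, and the members' calls were mostly in 1 direction. CXCL3 was tested only through its level at P33, and CCL7 through 2 P33 libraries and 1 DMSO library. The filter therefore favoured their rises at P33. For the steps the counts were 2 and 2 of 9 for P24 over P11 (33.6%, split into 16% and 17.7%), 5 and 2 for P30 over P24 (35.1%, split into 18% and 17.1%) and 6 and 1 for P33 over P30 (48.4%, split into 23.6% and 24.8%). All 9 varied over the 5 passages, where 82.9% of genes tested did. That of CXCL6 (adjusted p = 0.0192) was lost without P3 replicate 1 or P11 replicate 2 or 3 (0.0664, 0.109 and 0.079).

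Of the reads summed over the 10 members, CXCL12 held most at P3 and CCL2 most at P33. At P11 both the share and the level of CCL2 were lower than at P3. From P11 to P30 its share grew. Its level was also higher at P24 than at P11 (log2 0.62, SE 0.113, adjusted p = 5.59e-05). At P24 and P30 its level did not differ from that at P3 by the test. The sum was 255 ± 6 CPM at P3, 195 ± 7.1 at P11, 126 ± 18 at P24, 97.3 ± 4.1 at P30 and 197 ± 29 at P33. CXCL12 held 79.4%, 82.8%, 62.9%, 35.4% and 8.7% of it in that order, and CCL2 18.6%, 14.5%, 34.3%, 55.2% and 79.7%. The other 8 members together made 23.1 ± 5.6 CPM at P33, against 5.15 ± 1 CPM at P3.

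Levels can be compared between genes only per length. Per kb of merged exons in GENCODE 29 (6077 bases for CXCL12 and 1986 for CCL2, each longer than single transcripts), CXCL12 stood at 2.81 ± 0.31 CPM per kb at P33 and at 33.3 ± 0.55 at P3. CCL2 stood at 79 ± 11 CPM per kb at P33 and at 23.8 ± 1.1 at P3. CCL2 was thus the higher of this pair at P33 and CXCL12 at P3, and the order turned between P11 (26.6 ± 0.83 for CXCL12 and 14.3 ± 0.69 for CCL2) and P24 (12.9 ± 1.2 and 21.8 ± 4.7). At P33 CXCL1 came second after CCL2, at 9.04 ± 2.4 CPM per kb. CXCL12, CXCL2 (2.44 ± 0.66) and CXCL8 (2.21 ± 0.53) followed, and their spreads overlap.

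**Figure D3:**
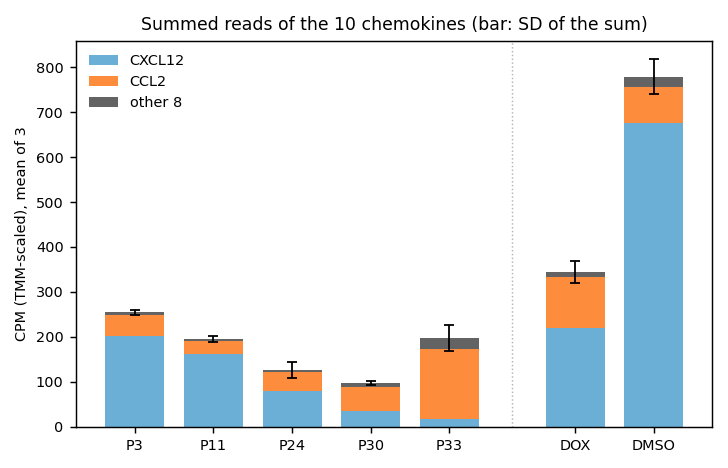
Summed CPM of the 10 chemokines (vertical axis, from 0) as group means of 3 libraries, split into CXCL12, CCL2 and the other 8, for the 5 passages and then DOX and DMSO. Error bars are the SD of the sum. CXCL12 fills 79.4% of the bar at P3 and 8.7% at P33, and 63.4% with DOX and 86.8% with DMSO.

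DOX was compared with DMSO to see whether this treatment moved the same transcripts. Of the 9 tested members 1 rose and 5 fell, where 37.3% of genes tested were called, 16.7% higher and 20.6% lower. The median log2 fold change was -0.83, against -0.01 over all genes tested. CXCL6 was tested only through its level with DMSO, so the filter favoured its fall. CXCL12 had 222, 241 and 193 CPM with DOX, against 718, 646 and 665 CPM with DMSO. The groups lie far apart, at a log2 fold change of -1.63 (SE 0.0704, adjusted p = 7.61e-19), which is 3.09-fold lower.

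Of the neutrophil attractants, CXCL8 had 1.05, 1.05 and 0.51 CPM with DOX, against 2.7, 2.49 and 2.41 CPM with DMSO. CXCL8 was lower in every DOX library, by 2.87-fold (log2 -1.52, SE 0.288, adjusted p = 6.98e-05). CXCL1 had 7.95, 7.33 and 7.39 CPM with DOX, against 16.3, 15.8 and 18.5 CPM with DMSO. Its DOX libraries lay close together and it was 2.23-fold lower (log2 -1.15, SE 0.167, adjusted p = 1.01e-06). CXCL6 had 20, 14 and 11 reads with DOX, against 33, 24 and 26 reads with DMSO, and was 2.13-fold lower (log2 -1.09, SE 0.297, adjusted p = 0.00383).

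CXCL2 lay at the threshold. It had 14, 12 and 18 reads with DOX, against 30, 13 and 25 with DMSO, and the groups overlapped in CPM (log2 -0.82, SE 0.33, adjusted p = 0.0488). The call was lost with DESeq2 (adjusted p = 0.0802), with limma voom (0.087), with the DOX and DMSO libraries alone (0.0654), with either other scaling (0.0514 and 0.0517), and without DOX replicate 1 or 2 or DMSO replicate 1 or 3. CXCL5 missed the threshold by a like margin (log2 -0.83, SE 0.338, adjusted p = 0.052), with libraries that did not overlap: 0.565, 0.351 and 0.714 CPM with DOX, against 0.856, 1.27 and 0.822 CPM with DMSO. It passed with limma voom (0.0431) and without DOX replicate 3 (0.0338). CXCL3, with 4, 5 and 3 reads against 5, 11 and 2, did not pass (log2 -0.78, 95% interval -2.06 to 0.51).

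CCL2 alone was higher with DOX. It had 106, 119 and 118 CPM with DOX, against 78, 72 and 86.7 CPM with DMSO. The groups did not overlap, and CCL2 was 1.45-fold higher (log2 0.54, SE 0.0994, adjusted p = 4.99e-05). Its neighbour CCL7 did not pass, with 7, 10 and 7 reads with DOX against 7, 11 and 4 with DMSO (log2 -0.08, 95% interval -1.07 to 0.91). CX3CL1 had 0 reads in both groups.

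**Figure D4:**
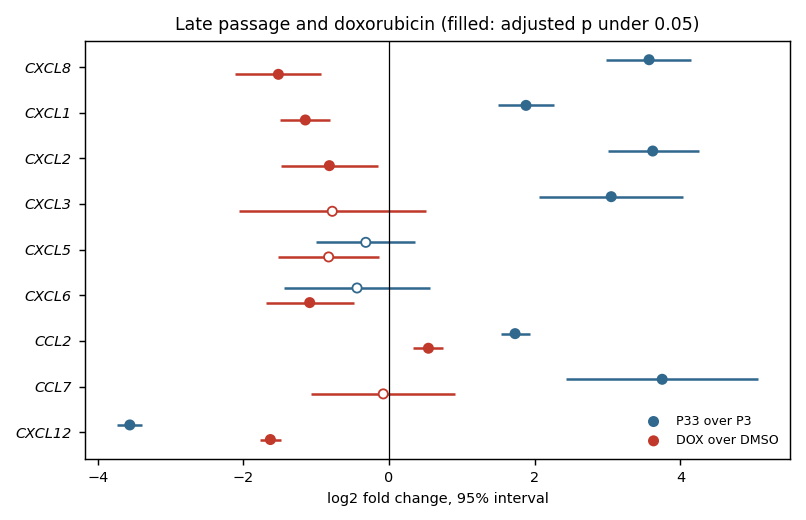
Log2 fold change with its 95% interval (horizontal axis) for the 9 tested chemokines, P33 over P3 in blue and DOX over DMSO in red. Filled points passed at adjusted p under 0.05. CXCL8 lies at 3.57 in blue and -1.52 in red, CCL2 is positive in both and CXCL12 negative in both.

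The DOX and P33 effects share no libraries, and their difference was tested for each member. It passed for 7 of 9 (background 51.2% of genes tested). The largest was in CXCL8, at -1.52 with DOX against 3.57 at P33, a difference of -5.09 (log2, SE 0.413, adjusted p = 5.24e-12). CXCL2, CXCL3, CXCL1 and CCL7 differed by -4.44, -3.83, -3.03 and -3.83. Of these, CXCL3 was tested only through its level at P33, and CCL7 through 2 P33 libraries and 1 DMSO library. CCL2 rose less with DOX, by -1.20 (SE 0.141), and CXCL12 fell less, by 1.93 (SE 0.107). CXCL5 and CXCL6 did not pass, with 95% intervals of -1.48 to 0.46 and -1.87 to 0.57.

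The DMSO cells were themselves unlike the untreated P11 cells of the passage part, and these values are set side by side without a test. CXCL12 averaged 676 ± 37 CPM with DMSO and 162 ± 5.1 CPM in untreated P11 cells, and CXCL1 16.9 ± 1.5 and 3.58 ± 0.45 CPM. CXCL8 averaged 2.53 ± 0.15 CPM with DMSO and 0.522 ± 0.36 CPM untreated. CXCL6 had 83 reads over the DMSO libraries and 2 over the untreated P11 libraries. Counting, solvent and culture cannot be told apart here.

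Among the other chemokines, 35 of 36 listed were found in the table and 6 had enough reads to test. At P33 against P3, 5 of the 6 rose and CCL28 fell (log2 -1.10, adjusted p = 6.02e-07), where 34.5% of genes tested rose and 33.3% fell. CXCL10 and CXCL11 averaged more than the filter level of 0.526 CPM at P33 alone, so that they had to be high there to be tested. The T cell attractant CCL5 had 119 reads over the P33 libraries and 0 over the P3 libraries, at least 43.4-fold higher by a floor of 3 reads over the group. It had more reads at P30, with 197. The interferon-induced CXCL10 had 52 reads at P33 and 0 at P3, at least 19-fold higher. CXCL11, another interferon-induced ligand of CXCR3, averaged 0.755 ± 0.24 CPM at P33 and 0.0515 ± 0.059 CPM at P3 (adjusted p = 1.39e-06), and CXCL14 1.2 ± 0.038 and 0.248 ± 0.26 CPM (adjusted p = 2.77e-05). CXCL11 overlaps another gene on the same strand and is uncertain. CCL5, CXCL10, CXCL14 and CXCL16 overlap genes on the opposite strand, as do ACKR4, BIRC3, CEBPB, HNRNPD, DPP4, MMP1, MMP3, IL1R1 and PTPRC, and whether counting used strand is not stated, so that reads of such pairs cannot be told apart. With DOX, 1 of the 6 rose and 0 fell, where 16.7% of genes tested rose and 20.6% fell. It was CXCL16, a ligand made as a membrane protein, at 2.88 ± 0.091 CPM with DOX and 1.87 ± 0.45 CPM with DMSO (adjusted p = 0.0214).

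Receptors had few reads: 4 of 23 were tested, and CXCR4, the receptor of CXCL12, had 16 reads in all 21 libraries. The scavenging receptor ACKR4 was the exception in level. It was 2.25-fold lower with DOX, at 245 ± 6 CPM against 550 ± 9.3 CPM with DMSO, and 1.26-fold lower at P33, at 80 ± 6.7 CPM against 101 ± 2.1 CPM at P3 (adjusted p = 4.3e-18 and 4.42e-06). CX3CR1, the receptor of CX3CL1, had 34 reads at P33 and 0 at P3, at least 12.4-fold higher, but more at P30, with 68. CCR10 rose 2.02-fold at P33 (adjusted p = 0.0159) and overlaps another gene on the same strand. At P33 against P3, 2 of the 4 tested receptors rose and 1 fell, where 34.5% of genes tested rose and 33.3% fell. The share of receptors called there is near the 67.8% of all genes. With DOX 0 receptors rose and 1 fell, where 16.7% of genes tested rose and 20.6% fell.

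Genes that act upstream of chemokine transcription were read from lists. Of 16 NF-kappaB subunits, kinases and feedback targets, 8 rose and 3 fell at P33 against P3 (median log2 0.17), and 0 rose and 3 fell with DOX (median -0.08). Over all genes tested 67.8% were called at P33 (34.5% higher, 33.3% lower) and 37.3% with DOX (16.7% higher, 20.6% lower), so the share of this list called at P33 is near that of all genes. The feedback inhibitor NFKBIA averaged 67 ± 3.4 CPM at P33 and 22.4 ± 2 CPM at P3, and the NF-kappaB target BIRC3 11.3 ± 2.1 and 1.61 ± 0.18 CPM. NFKBIZ and RELB rose 2.64-fold and 2.03-fold, the first overlapping another gene on its strand. With DOX the subunits NFKB1, NFKB2 and RELB were 1.3-fold, 1.21-fold and 1.22-fold lower.

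Of 16 tested cytokines, receptors and transcription factors that drive chemokine genes, 7 rose and 5 fell at P33 (median 0.08), and 4 rose and 10 fell with DOX (median -0.28). The share called at P33 is again near the 67.8% of all genes, and with DOX 37.3% of all genes were called. IL1A averaged 10.7 ± 0.66 CPM with DOX and 4.19 ± 0.33 with DMSO, and IL1B 18 ± 2.3 and 9.93 ± 0.33 CPM. At P33 IL1A stood at 7.42 ± 1.1 CPM against 0.34 ± 0.082 at P3, and IL1B at 11.9 ± 4.3 against 2.06 ± 0.54. IL-1 transcripts were thus higher in both comparisons, whereas CXCL8 and CXCL1 were higher at P33 and lower with DOX. The IL-1 receptor IL1R1 was 2.44-fold lower with DOX, at 312 ± 11 CPM against 762 ± 21 CPM. It was also lower at P33, by 1.18-fold, at 105 ± 9.4 CPM against 124 ± 4.6 CPM at P3 (adjusted p = 0.00201). CEBPB, a transcription factor of cytokine genes, averaged 41.8 ± 5.7 CPM with DOX and 73.7 ± 6.6 with DMSO, but 146 ± 13 CPM at P33 and 38.1 ± 4.3 at P3. IL1RAP, the co-receptor, rose 2.64-fold at P33. It overlaps other genes on its strand.

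Proteins that bind AU-rich mRNAs, and so bear on chemokine mRNA decay, were 4 up and 3 down of 9 at P33 (median 0.40) and 1 up (ELAVL1, which stabilises such mRNAs) and 6 down with DOX (median -0.30). ZFP36, which speeds the decay of cytokine mRNAs, averaged 34.1 ± 9.6 CPM at P33 and 22.2 ± 3.1 at P3, and 43.3 ± 2 with DOX and 56.6 ± 6.2 with DMSO. HNRNPD was 1.8-fold lower at P33 and 1.45-fold lower with DOX. Of 10 proteases that can cut chemokines, 3 rose and 7 fell at P33 (median -0.35), and 1 rose and 9 fell with DOX (median -0.39). Both lists stand beside 34.5% of all genes higher and 33.3% lower at P33, and 16.7% higher and 20.6% lower with DOX. DPP4, which inactivates CXCL12, was 1.62-fold lower at P33 (213 ± 17 CPM against 346 ± 9.6 at P3). The collagenase MMP1 was 4.74-fold lower at P33 and 3.2-fold lower with DOX, where MMP3 rose 2.44-fold.

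Markers of other cell types were read beside these results. Of 12 leukocyte markers 7 had reads at P33 and 5 at P3, with sums of 2.65 to 3.07 CPM at P33 and 1.19 to 1.6 CPM at P3. With DOX 10 had reads, summing to 2.45 to 3.46 CPM, against 6 and 0.88 to 1.53 CPM with DMSO. PTPRC, the pan-leukocyte gene, averaged 1.44 ± 0.27 CPM with DOX and 0.14 ± 0.035 CPM with DMSO, and CD3E had 4 reads with DOX and 0 with DMSO. At P33 PTPRC averaged 0.683 ± 0.029 CPM, against 0.311 ± 0.17 at P3, and the monocyte gene CSF1R 1.7 ± 0.15 CPM against 0.642 ± 0.052 (adjusted p = 0.0102 and 0.000174). CD3D and NKG7 were at 0 in all groups. Endothelial markers summed to 5.69 to 6.78 CPM at P33 and 4.27 to 4.64 CPM at P3 (7 and 8 of 9 with reads, CLDN5 and TIE1 at 0 at P33, CDH5 at 0 at P3), and to 2.91 to 3.96 CPM with DOX and 2.88 to 4.78 CPM with DMSO. Keratinocyte markers, mainly DSP, summed to 169 to 190 CPM at P33 and 306 to 332 CPM at P3, with KRT5 and KRT1 at 0 in both. DSP was the 1 that fell, and 3 rose at P33: DSG3 (0.967 ± 0.43 CPM against 0.0257 ± 0.044 at P3), KRT15 (5.19 ± 1 against 2.91 ± 0.45) and KRT10 (22.4 ± 0.41 against 14.3 ± 0.77). They summed to 356 to 445 CPM with DOX and 337 to 390 CPM with DMSO, with KRT5 at 0 in both. DSG3 had 76 reads with DOX and 0 with DMSO, at least 21.9-fold higher, and the endothelial EMCN 20 and 0 reads, at least 5.77-fold higher. EMCN and KRT15 overlap other genes on their strand, and CSF1R, DSP and KRT10 overlap genes on the opposite strand. Fibroblast markers were 5 up and 7 down of 14 at P33, and 3 up and 8 down with DOX. They summed to 20400 to 22900 CPM at P33 and 29200 to 30000 CPM at P3. These counts, and those of the 6 tested keratinocyte markers, stand beside 34.5% of all genes higher and 33.3% lower at P33. With DOX 16.7% of all genes were higher and 20.6% lower. The part of any of these cell type markers in the chemokine results was not tested.

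The genes most like each member over the 15 passage libraries were found by the root-mean-square difference of centred log2 CPM. Nearest to CXCL12, whose own range was 3.72, were MAOA (0.246), TBX4 (0.263) and TRIM55 (0.264). Nearest to CCL2 were ISM1 (0.273), CREB5 (0.28) and TNFAIP6 (0.287), and to CXCL8 the stress-response genes ATF3 (0.381), GDF15 (0.446) and TRIB3 (0.487). ATF3 averaged 26.1 CPM at P33 and 2.63 CPM at P3. GDF15 was also among the 3 nearest to CXCL1 (0.443, with OMG at 0.333 and PAPPA at 0.418) and to CXCL3 (0.579, with PLCH1 at 0.517 and DDIT3 at 0.629). ATF3 was among those nearest to CXCL2 (0.533, with CCPG1 at 0.488 and ANKRD22 at 0.527). GDF15, PLCH1, DDIT3, CCPG1 and TNFAIP6 overlap other genes on their strand. OMG, PAPPA, ANKRD22, TBX4, ISM1 and CREB5 overlap genes on the opposite strand.

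For the members with few reads the nearest genes were FOLR3, TPP1 and HAGHL for CXCL5 (0.269 to 0.297), PLS1, HBEGF and PPME1 for CXCL6 (0.401 to 0.429), and LONRF3, ASPN and EHF for CCL7 (0.459 to 0.472). FOLR3, TPP1, PLS1 and PPME1 overlap other genes on their strand, and HAGHL and ASPN overlap genes on the opposite strand. Between members the closest pairs were CXCL2 with CXCL8 (0.505), CXCL1 with CCL2 (0.552) and CXCL1 with CXCL3 (0.584), and the farthest was CXCL2 with CXCL12 (2.66). These distances describe the 15 libraries, which share passages and depth.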

How the data were processed

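The submitters' processing notes list featureCounts 2.0.1 (Subread), HISAT2 2.1.0, DESeq2 1.34.0, cutadapt 3.3, FastQC 0.11.9 and SAMtools 1.11, with no roles. The builds named are hg38 and GRCh38.p13. No options are stated. The authors deposited whole-number read counts per gene, not normalized. Genes were kept by filterByExpr (minimum count 10; 16821 of 61544 genes), scaled by TMM (factors 0.899 to 1.13) and fitted in 1 quasi-likelihood model of 7 group means over 21 libraries (edgeR 4.0.16, R 4.3.3; 14 residual degrees of freedom). P-values are two-sided and Benjamini-Hochberg adjusted over all genes tested, and every adjusted p given is from this test unless another is named. Intervals are 95%, and counting intervals (exact binomial) and floors (3 reads over a group) cover counting error only.

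The members and lists were chosen with earlier results of these data known. Named genes are all members, up to 4 called genes with the largest change per list in P33 with P3 and in DOX with DMSO, and the 3 nearest protein-coding genes of each tested member (prior count 2); some of those called are given as counts only. Single genes outside this rule (PF4, PPBP, PF4V1, CXCR4, CCL28, ELAVL1, CD3D, CD3E, NKG7, KRT5, KRT1, CLDN5, TIE1, CDH5) were named after their values were seen. Promoters came from RefSeq (GRCh38.p14; 8 of 10 members matched) and exon lengths from GENCODE 29. The fit was tested on simulated data. Alternatives used DESeq2 1.42.0 and limma 3.58.1, other scalings and filters, separate fits of both parts, a replicate block and each library left out.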

Additional observations from a re-analysis of the deposited data

Results flagged for a closer look

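The effect of DOX over DMSO differed from the effect of P33 over P3 in 7 members, by a test of the difference itself (edgeR quasi-likelihood test, Benjamini-Hochberg adjusted over 16821 genes). On the log2 scale the difference was -5.09 for CXCL8, -4.44 for CXCL2, -3.83 for CXCL3, -3.03 for CXCL1 and -3.83 for CCL7. It was -1.2 for CCL2, which was higher in both comparisons, and 1.93 for CXCL12, which was lower in both. CXCL3 was tested only through its level at P33, and CCL7 through 2 P33 libraries and 1 DMSO library. The P33 and P3 libraries were not counted like the DOX and DMSO libraries, and each effect was taken within its own part. All 7 differences kept their call and sign when any 1 of the 12 libraries concerned was left out.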

How the results depend on the processing

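Keeping genes with a mean of at least 10 CPM left CXCL12 and CCL2 as the tested members. The count of members called was then 1 for P24 with P3 and P30 with P3 and P30 with P24. It was 2 for P33 with P3, P24 with P11, P33 with P30, DOX with DMSO, any difference among passages, and the DOX effect minus the P33 effect. Fewer members were tested, and in P30 with P24 CCL2 also lost its call (0.264, adjusted p = 0.069). With single libraries left out the counts ran from 3 to 6 for P24 with P3 (the 6 without P24 replicate 3), 5 to 7 for P30 with P24, and 5 to 7 for DOX with DMSO. They stayed at 7 for P33 with P3, for P33 with P30 and for the difference of effects.

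Same-numbered libraries did not deviate together (0 of 63 pairs correlated above 0.1, median 0.00421). This cannot show that the number has no meaning, and the labels do not say whether it marks a pairing. Of the 21 libraries 7 correlated best with their own number. With the number as a replicate block the counts were 5 in place of 4 for P24 with P11 and unchanged for the other comparisons.

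Scaling by library totals alone moved the median of all genes by 0.195 (log2) at P33 with P3, where 65.6% of called genes were then higher in place of 50.9%, but left 7 members called there, 6 higher and 1 lower. The cause of the changes that follow was not tested. Signs turned only for members that did not pass, 16 times with a library left out and once otherwise, where CXCL8 at P24 with P3 was -0.0355 with limma voom. With each library left out in turn, the log2 fold change of P11 with P3 ran from -0.0215 to 0.309 for CXCL1, -0.537 to 0.169 for CXCL2, -0.824 to 0.697 for CXCL3 (-0.246 without P3 replicate 1), -0.489 to 0.161 for CXCL5 and -0.403 to 0.653 for CXCL8. At P24 with P3 it ran from -0.601 to 0.365 for CXCL8 (-0.0192 without P3 replicate 2), and at P24 with P11 from -0.969 to 0.512. At P30 with P3 it ran from -0.315 to 1.24 for CCL7 (-0.11 without P3 replicate 2). At P33 with P3 it ran from -0.604 to 0.0223 for CXCL5 and from -0.689 to 0.141 for CXCL6. For DOX with DMSO it ran from -1.14 to 0.0762 for CXCL3 and from -0.329 to 0.421 for CCL7 (0.109 without DOX replicate 1). Depth limits CXCL3, CXCL6, CCL7 and CX3CL1 most.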
